A study of Mus musculus with 6 samples.

Results

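Circular RNAs (circRNAs) from host genes of the centrosome and the cilium were followed in mouse cortex after pilocarpine-induced seizures. The members were chosen by gene name. They are the circRNAs with a single listed host gene whose symbol is Cep, Ift, Bbs, Nphp, Dnah, Ttc or Ccdc followed by a number, or is Pcnt, Pcm1, Cdk5rap2, Cspp1, Odf2, Ahi1, Cc2d2a, Ninl, Nin or Akap9. This gave 189 circRNAs of the 11171 listed, from 55 host genes of 3469. Control mice (n = 3) had saline. Mice of the temporal lobe epilepsy group (TLE, n = 3) had scopolamine methyl bromide and then pilocarpine, which causes Status Epilepticus (SE), and diazepam to end it. All were male mice of the strain C57BL/6 per the labels (C57BL/6J in the methods), 6 weeks old per the methods, and TLE cortex was taken 24 h after SE, so the model is an acute one. Each library came from 1 mouse and the whole cortex, so fewer cells of a type and less RNA per cell cannot be told apart.

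The centrosome is built of a pair of centrioles in a pericentriolar matrix that nucleates microtubules, surrounded by small granules called centriolar satellites. The older centriole carries appendages with which it docks at the cell surface and becomes the base of a primary cilium, an antenna that most neurons and astrocytes of the cortex bear and that receives hedgehog and other signals. Cargo enters through the transition zone and moves along the cilium on intraflagellar transport (IFT) trains and with the BBSome, whereas motile cilia, in the brain those of ependymal cells, also need axonemal dyneins. A circRNA arises when the end of an exon is spliced back to the start of an exon upstream, and it is recognised by the reads that cross this back-spliced junction.

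The name rule is broader than the label. Of the 55 host genes, 24 are named Ttc or Ccdc for a protein motif, the tetratricopeptide repeat or the coiled coil, and these genes gave 82 of the circRNAs and 62.8% of the members' summed level. Ttc3, an E3 ubiquitin ligase that acts on Akt, and Ttc19, an assembly factor of mitochondrial complex III, are among them and are not known chiefly for the centrosome. Values are therefore also given for the other 31 genes, which had 107 circRNAs. This split goes by name alone, so Ttc8 of the BBSome and the satellite protein Ccdc66 fall with the motif-named genes.

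The junctions of the circRNAs that carry most of the level are shown because each one is what the reads identify. Each has 15 bases from the end of the last exon in lower case, followed by 15 bases from the start of the first exon in capitals. The bases were read from the GENCODE M21 transcripts of build GRCm38 (mm10), 5′ to 3′ on the strand of the gene, and exon numbers are those of 1 transcript per gene. The first set comes from Ttc3 on chromosome 16, plus strand, and shows how its main circRNAs share exon 2 or exon 11. Both mmu_circ_0003477 (chr16:94383912-94403368, exons 2 to 11 of 46) and mmu_circ_0003476 (chr16:94383912-94393174, exons 2 to 10) begin with exon 2. The next one, mmu_circ_0003483 (chr16:94403314-94412123, exons 11 to 15), begins with exon 11, the 55-base exon with which mmu_circ_0003477 ends. The annotated translation start lies inside both exon 2 circRNAs (911 and 856 exonic nucleotides), whereas mmu_circ_0003483 (452 nucleotides) spans coding exons only.
mmu_circ_0003477: aacacctggccaaagGACTGTGCAGCATGG
mmu_circ_0003476: tatggggcagtttagGACTGTGCAGCATGG
mmu_circ_0003483: ttctgccacctccaaAAATGCACTTAGCGA

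The second set shows the same sharing of an end in Cep112 (plus strand), Bbs9 (plus strand) and Pcm1 (plus strand). The Cep112 pair, mmu_circ_0000591 (chr11:108664496-108757819, exons 22 to 24 of 28) and mmu_circ_0000593 (chr11:108664496-108808739, exons 22 to 25), have the same first exon. The Bbs9 pair, mmu_circ_0010366 (chr9:22643745-22679064, exons 14 to 19 of 23) and mmu_circ_0010368 (exons 16 to 19), have the same last exon. The Pcm1 pair, mmu_circ_0009901 (chr8:41274995-41290892, exons 11 to 22 of 39) and mmu_circ_0009899 (chr8:41274995-41276152, exons 11 to 13), have the same first exon again. All these circRNAs span coding exons only.
mmu_circ_0000591: gaccaagcaatcaagGTTATTGCTGACATG
mmu_circ_0000593: gaggcgcaggagcagGTTATTGCTGACATG
mmu_circ_0010366: gggacatacaagcagATTACCCTGCAGAAC
mmu_circ_0010368: gggacatacaagcagGTATTCCTCGGGTTG
mmu_circ_0009901: agcagaaaagcaaagGAAGTTAAATGAAGT
mmu_circ_0009899: gttgctatggtgcagGAAGTTAAATGAAGT

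The last set holds the single circRNA of Ttc19 (plus strand, chr11:62283597-62292218, exons 3 to 7 of 10) and the main circRNAs of Cep350 (minus strand, chr1:155953154-155962560, exons 2 to 6 of 38) and Odf2 (plus strand, chr2:29893001-29922371, exons 4 to 18 of 22), whose values follow. The translation start lies inside those of Cep350 and Odf2, and that of Ttc19 spans coding exons only.
mmu_circ_0000889: aagatattatgtcagTTGAGCATCATGAAA
mmu_circ_0004891: ctccagcatacaaagGTAAATTGGCAAGAT
mmu_circ_0006040: gacctgcgcagccggATCCATCTTTTTTGT

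Levels are in SRPBM, the authors' normalized signal, which relates the junction reads to the mapped reads of each library. It counts reads at a junction and does not grow with the length of a circRNA, so levels of different host genes can be set side by side. One junction read was worth between 8.55 and 10.3 SRPBM, and the libraries held 32504 to 56516 junction reads. A level of 3 junction reads (25.6 to 31.0 SRPBM) was taken as the floor, which concerns counting error only. Zeros are given as the table lists them; the smallest value listed is 2 junction reads, so a listed 0 can stand for 1 read. TLE libraries 2 and 3 had the highest totals of all circRNAs, and the median log2 fold change of all 2157 host genes tested was 0.20 in favour of TLE, against 0.01 after each library was rescaled to the same total. Changes are therefore read against that shift. Of the marker genes checked for the tissue, 5 of 10 for neurons were hosts of circRNAs (61 circRNAs, 2958 junction reads). These circRNAs summed to 3598, 3970 and 4066 SRPBM in Control, against 4142, 5331 and 5443 SRPBM in TLE, all TLE libraries being higher. As a share of all circRNAs in the library the groups overlapped, with 1.02 to 1.20% in Control and 1.11 to 1.30% in TLE, and the part of this in the members' results was not tested. Among non-neuronal markers, 1 of 6 for astrocytes (Slc1a2, 6 junction reads) and 1 of 8 for ependymal and other multiciliated cells (Spag16, 5 junction reads) were hosts, and none of the 6 each for oligodendrocytes, microglia and endothelial cells or of the 4 for choroid plexus was. A circRNA table shows a gene only where it is back-spliced, so a marker without a circRNA says nothing of its cells.

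The summed level of the 189 member circRNAs was 5204, 4825 and 5969 SRPBM in the Control libraries 1, 2 and 3, and 5309, 5865 and 7727 SRPBM in the TLE libraries. The groups overlapped, and TLE 3 stood highest. The Control mean was 5333 ± 583 and the TLE mean 6301 ± 1266 (SD, n = 3 each). The difference was smaller than the spread between TLE mice, and the ratio of 1.18 fell to 1.05 without TLE 3. As a share of all circRNAs in the library, the members made up 1.53% ± 0.110 in Control and 1.53% ± 0.0847 in TLE (SD, n = 3 each). Without the genes named Ttc or Ccdc the shares were 0.565% ± 0.0302 and 0.572% ± 0.0401. The members' part of the circRNA pool therefore differed by less than the spread between mice, by either definition. Between 67 and 79 member circRNAs were detected in a Control library and between 67 and 100 in a TLE library, from 30 to 32 and 30 to 35 host genes.

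**Figure D1:**
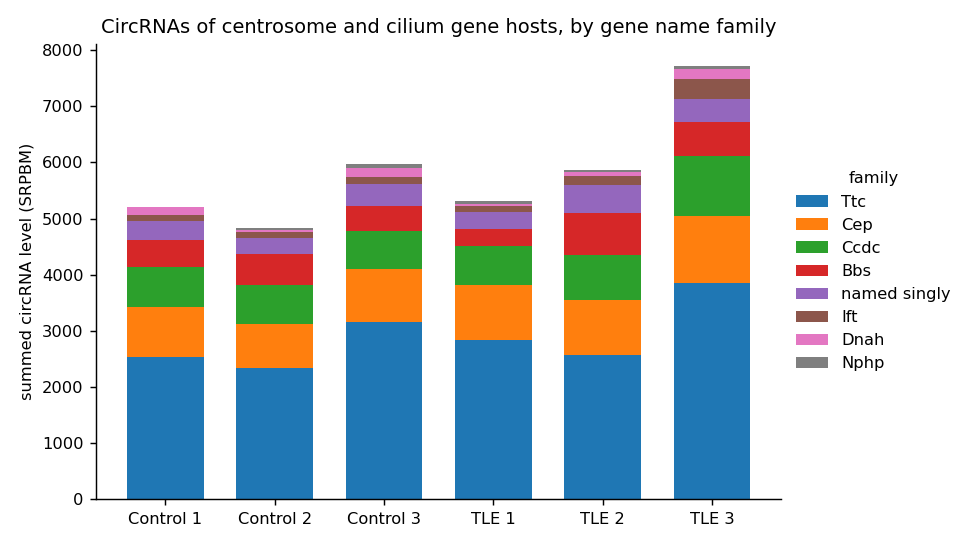
Summed SRPBM of the member circRNAs in each library (x axis), stacked by gene name family (colours), with the 10 genes named in full grouped as "named singly". Ttc hosts form the largest block in every library, and TLE 3 has the highest total at 7727 SRPBM.

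The families were unequally represented. Cep genes gave 41 circRNAs from 16 of the 36 annotated protein-coding genes with such a name, and 16.6% of the members' level. Of 14 Ift genes, 3 were hosts (12 circRNAs, 2.74%), and of 8 Bbs genes only Bbs9 was (10 circRNAs, 8.98%). Nphp4 was the single Nphp host of 3, with 0.697% of the level, and Dnah9 and Dnah2 the hosts among 15 Dnah genes, with 1.79%. Of the genes named in full, 8 of 10 were hosts (27 circRNAs, 6.43%), and no circRNA was listed for Cc2d2a, a transition zone protein, or Ninl, a ninein-like centrosomal protein. Ttc hosts (10 of 42) carried 49.5% and Ccdc hosts (14 of 139) 13.3%.

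The level was concentrated in few genes. Ttc3 alone held 38.2% of it, the highest 5 genes 67.7% and the highest 12 genes 86.4%. Of the 55 host genes, 8 had 100 or more junction reads over all libraries and 26 had 10 or fewer. A value above 0 in all 6 libraries was found for 14 host genes, and in a single library for 16. Of the 189 circRNAs, 134 (70.9%) had 10 junction reads or fewer in all. The 23 host genes above 0 in fewer than 3 libraries, none with more than 9 reads, entered no test.

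The make-up of the member circRNAs was set beside that of circRNAs from other single hosts. Both ends lay on annotated exon boundaries in 176 of 189 (93.1%, 95% Wilson interval 88.6 to 95.9%), against 90.9% of the others. On a transcript, the 175 that could be placed spanned a median of 5 exons and 690 exonic nucleotides, against 4 exons and 614 nucleotides. A single exon made up 1.14% of them, against 3.99%, and 20.6% started with exon 2, against 29.9%. Coding exons alone were spanned by 138 (78.9%), and the translation start lay inside 34 (19.4%, against 14.6%). These are descriptions of circRNAs that often overlap within a gene, and none was tested. The inner exons follow from the annotation, because junction reads do not show them.

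Several circRNAs of a gene often shared an end. Of the 36 member genes with more than 1 circRNA, 28 (77.8%) had at least 1 end in common between circRNAs, against 80.5% of the other hosts. In Ttc3 the start of exon 2 was used by 4 of 16 circRNAs with 70.0% of the junction reads, and the start of exon 11 by 4 more with 25.3%. The start of exon 22 of Cep112 was shared by 6 of 13 (63.5%), and the end of exon 19 of Bbs9 by 5 of 10 (75.3%). The start of Cep350 exon 2 was common to 4 of 5 (96.5%), the end of Odf2 exon 18 to 4 of 5 (96.6%), and the start of Pcm1 exon 11 to all 4. Of the circRNAs printed above, that of Ttc19 is the only one of its gene, and the others share an end with at least 1 more circRNA.

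**Figure D2:**
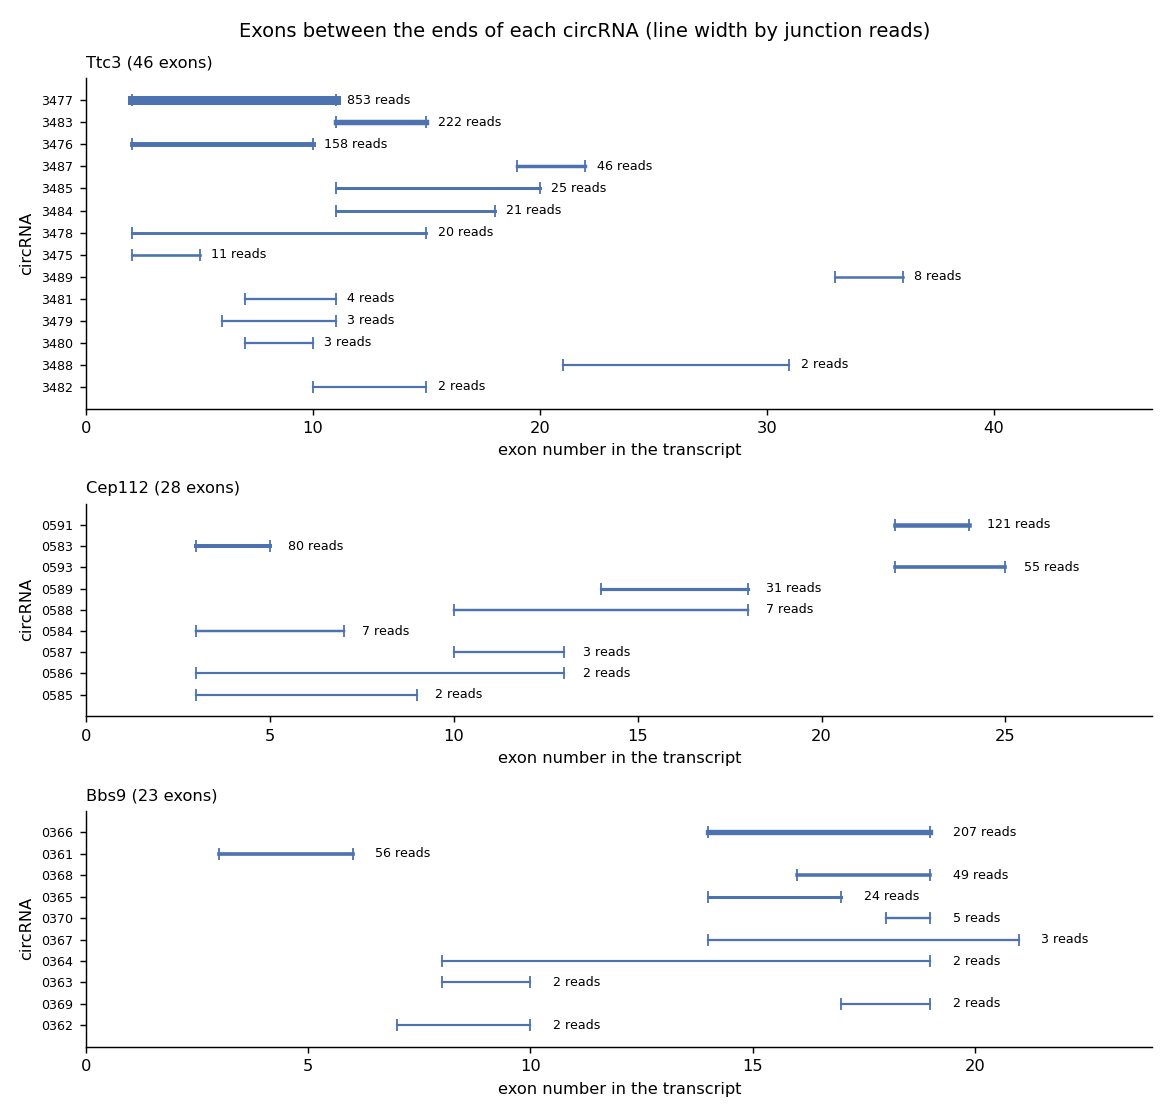
Exons spanned by each circRNA of Ttc3, Cep112 and Bbs9 (x axis, exon number in 1 transcript; y axis, circRNAs by the end of their number), with ticks at the first and last exon and the junction reads over all 6 libraries; circRNAs with an end outside that transcript are left out. In Ttc3, mmu_circ_0003477 (853 reads) ends in exon 11, where mmu_circ_0003483 (222 reads) begins.

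Among the motif-named hosts, Ttc3 stood highest. Its 16 circRNAs summed to 1948, 1804 and 2489 SRPBM in Control and 2087, 2043 and 2968 SRPBM in TLE, with overlapping groups. In limma the log2 fold change was 0.18 ± 0.21 (SE, adjusted p = 0.905), and it was -0.05 after rescaling. The exon 2 to 11 circRNA, mmu_circ_0003477, held 57.2% of the gene and measured 1162, 976 and 1413 SRPBM in Control and 1126, 1271 and 1679 SRPBM in TLE, which again overlapped. The exon 11 to 15 circRNA, mmu_circ_0003483, had 239, 288 and 362 SRPBM in Control and 289, 228 and 579.8 SRPBM in TLE, where TLE 3 alone was above every Control library. The shorter exon 2 circRNA, mmu_circ_0003476, measured 179, 205 and 189.5 SRPBM in Control and 309.9, 272 and 277 SRPBM in TLE. Here the TLE libraries all lay above those of Control, with a log2 fold change of 0.54 ± 0.27 (SE, unadjusted p = 0.0605 and adjusted p = 0.922 in limma). Its share of the gene within a library was 9.39% ± 1.87 in Control and 12.5% ± 2.85 in TLE (SD, n = 3 each), and the shares overlapped between the groups. In the share, TLE 1 and TLE 2 (14.9 and 13.3%) lay above every Control library (7.61 to 11.3%), and TLE 3 (9.33%) did not. Rescaling the libraries also ended the separation of the levels.

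Ttc19 had a single circRNA, mmu_circ_0000889, with 248, 325 and 413 SRPBM in Control and 485, 0 and 493 SRPBM in TLE. It was listed at 0 in TLE 2, although every other library had at least 29 junction reads. Of the 185 circRNAs with 20 or more reads in each of the other libraries, 4 were listed at 0 in TLE 2, and the other libraries had between 1 and 4 of this kind. The log2 fold change of -1.05 ± 0.81 (SE, adjusted p = 0.891 in limma) turned to 0.58 without TLE 2. Ttc7b, a scaffold that holds a phosphatidylinositol 4-kinase at the plasma membrane, had 197, 102 and 146 SRPBM in Control and 134, 298 and 242 SRPBM in TLE, with overlap.

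The Ccdc hosts with most circRNA were Ccdc148 and Ccdc88a. Ccdc148 ranged from 308 to 370.4 SRPBM in Control and from 207 to 372 SRPBM in TLE, and no circRNA of it held more than 24.1% of the gene. Ccdc88a encodes girdin, an actin-binding protein of cell migration, and its circRNAs summed to 248, 186 and 172 SRPBM in Control and 145, 272 and 389 SRPBM in TLE. Both genes overlapped between groups, with log2 fold changes of -0.13 ± 0.30 and 0.30 ± 0.36 (SE). One Ccdc88a circRNA, mmu_circ_0000716 (exons 4 to 7 of 32), was listed at 0, 27.9 and 25.8 SRPBM in Control and 31.0, 61.4 and 69.2 SRPBM in TLE, so that its groups lay apart by less than 1 junction read. Ccdc171 varied widely within each group, from 17.2 to 102 SRPBM in Control and from 43.8 to 186 SRPBM in TLE.

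**Figure D3:**
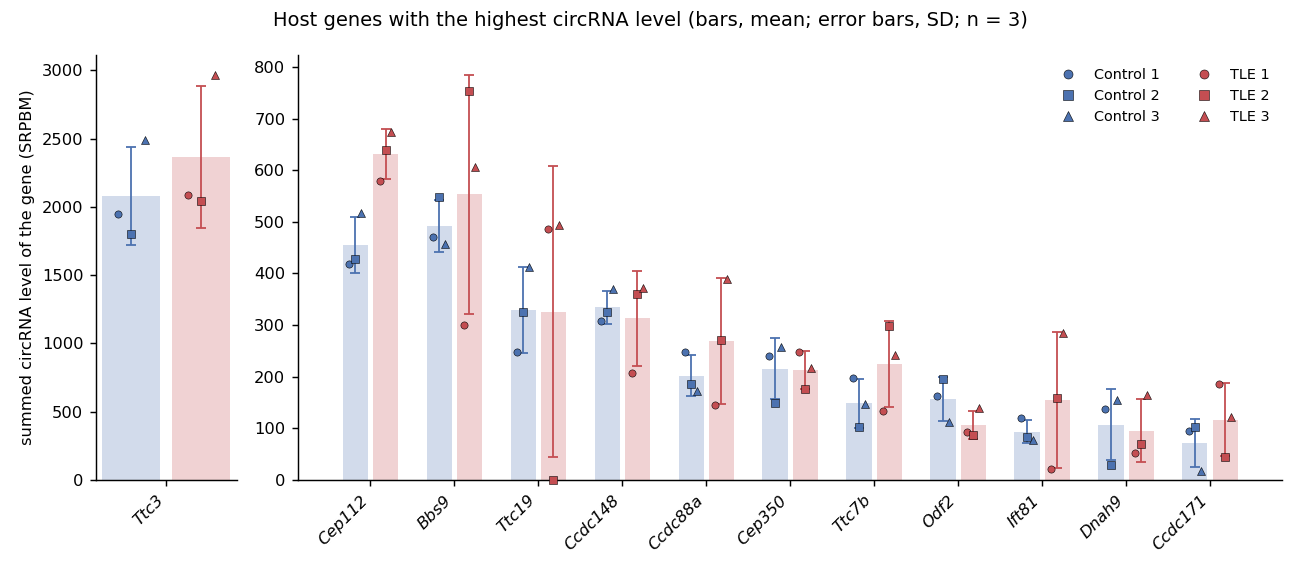
Summed circRNA level in SRPBM (y axis, linear) of the 12 host genes with the highest mean, with Ttc3 on a scale of its own; points are single libraries, bars the mean and error bars the SD of 3 libraries. Cep112 is the one gene among them in which all TLE points (578 to 675 SRPBM) lie above all Control points (419 to 517 SRPBM).

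Among proteins of the centrosome and centriole, Cep112, a coiled-coil centrosomal protein, had the most circRNA. Its 13 circRNAs summed to 419, 428 and 517 SRPBM in Control and 578, 640.0 and 675 SRPBM in TLE. The TLE libraries all lay above those of Control, with 46 to 60 junction reads in Control and 56 to 78 in TLE. The log2 fold change was 0.46 ± 0.24 (SE, unadjusted p = 0.0721 and adjusted p = 0.834 in limma), it stayed between 0.41 and 0.56 when any 1 library was left out, and the groups overlapped after rescaling. The main circRNA, mmu_circ_0000591, measured 154, 121 and 181 SRPBM in Control and 196, 228 and 208 SRPBM in TLE, also apart as deposited but not after rescaling. Its log2 fold change was 0.44 ± 0.30 (SE, unadjusted p = 0.158 and adjusted p = 0.922 in limma). Its share of the gene was 33.3% ± 4.48 in Control and 33.4% ± 2.46 in TLE (SD, n = 3 each). The neighbour with 1 more exon, mmu_circ_0000593, went from 68.4, 74.4 and 112 SRPBM in Control to 93.0, 87.7 and 60.6 SRPBM in TLE, and its groups overlapped. The circRNAs of the exon 22 set thus did not all have the same order of groups.

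Cep350, which anchors microtubules at the centrosome, had 239, 149 and 258 SRPBM in Control and 248, 175 and 216 SRPBM in TLE, a log2 fold change of 0.01 ± 0.33 (SE). Cep70, a centrosomal protein of microtubule organisation, had 42.7, 74.4 and 68.9 SRPBM in Control and 0, 35.1 and 43.3 SRPBM in TLE. The highest TLE library exceeded the lowest Control library by less than 1 junction read, and the log2 fold change was -1.04 ± 0.63 (SE, adjusted p = 0.854 in limma). Cep128, a protein of the subdistal appendages, was listed at 51.3, 18.6 and 0 SRPBM in Control and 31.0, 0 and 0 SRPBM in TLE.

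The pericentriolar matrix and the satellites held the one member gene past the study's threshold. The study applied that threshold to single circRNAs with DESeq2, and here it was applied in limma to the sum of a gene. Pcm1, the scaffold of the centriolar satellites, was listed at 0, 0 and 103 SRPBM in Control, against 31.0, 140.3 and 112 SRPBM in TLE. It was thus above 0 in every TLE library but in a single Control library, whose level lay within the TLE range. The log2 fold change was 1.60 ± 0.74 (SE, unadjusted p = 0.0444 and adjusted p = 0.780 in limma). It was 1.13 without Control 1 or Control 2, 1.27 without TLE 2 and 1.41 without TLE 3, below the threshold in each case, and 1.48 after rescaling, but 2.54 without Control 3 and 2.12 without TLE 1. Of its 4 circRNAs, mmu_circ_0009900 was found only in Control 3 (43.1 SRPBM), and mmu_circ_0009902 only in TLE 2 and TLE 3 (35.1 and 26.0 SRPBM). The main circRNAs of the gene, mmu_circ_0009901 and mmu_circ_0009899, were both present in Control 3, TLE 2 and TLE 3, and mmu_circ_0009899 also in TLE 1.

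Cdk5rap2, which recruits gamma-tubulin complexes and is mutated in primary microcephaly, had 17.1, 0 and 17.2 SRPBM in Control and 31.0, 35.1 and 43.3 SRPBM in TLE. All Control libraries were at or under the floor, and the TLE mean was 1.38-fold the mean floor of the Control libraries. TLE 1 was itself at the floor. In limma the log2 fold change was 0.97 ± 0.62 (SE, unadjusted p = 0.131 and adjusted p = 0.854). Its main circRNA, mmu_circ_0007509 (exons 15 to 18 of 37), was listed at 0 in all 3 Control mice and reached 31.0, 35.1 and 17.3 SRPBM in TLE, which is 2 to 4 junction reads. The other, mmu_circ_0007508 (exons 15 to 20), held all Control reads of the gene. It averaged 11.4 SRPBM in Control and 8.65 SRPBM in TLE, with a log2 fold change of -0.22 ± 0.57 (SE). Akap9, an anchor for protein kinase A at the centrosome and Golgi, was listed at 0 in all 3 Control mice and reached 31.0, 26.3 and 17.3 SRPBM in TLE, no more than 3 junction reads in any, so no fold is given. Both Akap9 and mmu_circ_0007509 entered the tests through TLE alone. Pcnt, the pericentrin scaffold of the matrix, was listed at 41.3 SRPBM in TLE 1 and at 0 elsewhere. The satellite protein Ccdc66 had 42.7, 0 and 25.8 SRPBM in Control and 51.6, 43.8 and 104 SRPBM in TLE, with the lowest TLE library close to the highest Control library. For these genes a separation of the groups rests on a few reads.

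Of the appendage proteins, Odf2 (cenexin), needed for the appendages of the mother centriole, had 162, 195 and 112 SRPBM in Control and 93.0, 87.7 and 138 SRPBM in TLE. The groups overlapped as deposited and lay apart, with TLE lower, after rescaling. Its log2 fold change was -0.49 ± 0.39 (SE, adjusted p = 0.891 in limma). Nin (ninein), which anchors microtubules at the subdistal appendages, had 51.3, 27.9 and 34.5 SRPBM in Control and 0, 87.7 and 43.3 SRPBM in TLE, the TLE libraries lying on both sides of Control. Cep164 and Cep83, proteins of the distal appendages, had log2 fold changes of -0.33 ± 0.66 and 0.72 ± 0.58 (SE).

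For the cilium itself, Bbs9, a core subunit of the BBSome, was the main host. Its 10 circRNAs summed to 470.0, 549 and 457 SRPBM in Control and 299.6, 754 and 606 SRPBM in TLE. The TLE libraries lay below and above all Control libraries, and the log2 fold change was 0.07 ± 0.30 (SE, adjusted p = 0.976 in limma). The exon 14 to 19 circRNA, mmu_circ_0010366, had 291, 298 and 293 SRPBM in Control, the narrowest Control range of the 8 highest member circRNAs, and 207, 403 and 355 SRPBM in TLE. It made up 60.1% ± 5.18 of the gene in Control and 60.3% ± 7.89 in TLE (SD, n = 3 each). The total thus spread widely among TLE mice while the share of the main circRNA differed by less than its spread.

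Ift81, which carries tubulin as part of the IFT-B train, had 119.6, 83.7 and 77.5 SRPBM in Control and 20.7, 158 and 286 SRPBM in TLE, the TLE libraries lying on both sides of Control. The log2 fold change of 0.21 ± 0.58 (SE) lay between -0.43 (without TLE 3) and 1.07 when 1 library was left out. Its partner Ift74 had 0 to 43.1 SRPBM in Control and 0 to 51.6 SRPBM in TLE, and Ift88, another IFT-B subunit, was listed above 0 in TLE 1 and TLE 3 only. Ahi1, a transition zone protein of Joubert syndrome, had 85.5, 46.5 and 86.1 SRPBM in Control and 62.0, 114 and 69.2 SRPBM in TLE, with overlap and a log2 fold change of 0.14 ± 0.47 (SE). Nphp4, also of the transition zone, ranged from 0 to 68.9 SRPBM in Control and from 41.3 to 51.9 SRPBM in TLE. Cspp1, a microtubule protein of the cilium, was listed at 17.1, 18.6 and 43.1 SRPBM in Control and 20.7, 0 and 0 SRPBM in TLE, so the TLE libraries were all under the floor.

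Dnah9, a heavy chain of the outer dynein arms of motile cilia, gave 14 circRNAs but 69 junction reads. They summed to 137, 27.9 and 155 SRPBM in Control and 51.6, 70.1 and 164 SRPBM in TLE, with a log2 fold change of -0.04 ± 0.54 (SE). The largest, mmu_circ_0000922 (exons 40 to 43 of 69), had 29 of these reads and was above 0 in all 6 libraries. Circular RNA of an axonemal dynein was thus present in every library, while the ependymal markers checked summed to 26.3 SRPBM at most and were listed at 0 in 4 libraries. Whether ependymal cells were the source was not tested.

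Across all host genes tested, limma placed 33 (1.53%) past the study's threshold as higher in TLE and 8 (0.371%) as lower, the threshold being an absolute log2 fold change of 1.5 or more together with an unadjusted p under 0.05. Of the 32 member genes tested, 1 (Pcm1) was higher and 0 were lower. After Benjamini-Hochberg adjustment in limma, 0 members and 0 of all 2157 genes had an adjusted p under 0.05. The smallest adjusted p of a member was 0.772 and of any gene 0.728, and the unadjusted p was under 0.05 for 2 members (Pcm1 and Akap9) and for 133 genes (6.17%). Akap9, listed at 0 in every Control library, passed the filter of at least 3 libraries above 0 through TLE alone. Its TLE libraries thus had to lie above Control. The median log2 fold change of the members was 0.19, beside 0.20 for all genes, and 65.6% of the members were above 0, beside 65.3%. The centre of the members thus lay near that of all genes.

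All TLE libraries lay above all Control libraries in 5 member genes (Cep112, Ttc28, Cdk5rap2, Akap9 and Ccdc66) of 32, beside 10.7% of all genes, and below in 0, beside 1.95%. Ttc28, a tetratricopeptide protein of the midbody, had 17.1, 27.9 and 17.2 SRPBM in Control and 51.6, 52.6 and 34.6 SRPBM in TLE, at least 1.75-fold over the floor. After rescaling, 2 member genes (Cdk5rap2 and Akap9) lay above, beside 5.61% of all genes, and 2 (Odf2 and Cep70) below, beside 4.73%. For Akap9 the filter fixed this order under both scalings. The excess of genes with TLE above Control was thus present in the whole table and was smaller after rescaling, among the members and overall.

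Among single circRNAs, 65 members were tested out of 4271. None was past the threshold in limma, beside 1.26% of all circRNAs higher and 0.304% lower, and 2 had an unadjusted p under 0.05, mmu_circ_0000590 of Cep112 (log2 fold change 1.35) and mmu_circ_0007509 of Cdk5rap2 (1.37), beside 5.2%. Both had 9 junction reads, none of them listed in a Control library. They passed the filter of at least 3 libraries above 0 through TLE alone, which fixed TLE above Control under both scalings. The end of mmu_circ_0000590 lay on no annotated exon boundary. TLE lay above Control in 6 member circRNAs, beside 8.94% of all, and below in 0, beside 2.11%. With rescaled libraries there were 3 above, beside 5.08%, and 2 below, beside 4.96%. The member circRNAs had a median log2 fold change of 0.20, beside 0.17 for all.

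**Figure D4:**
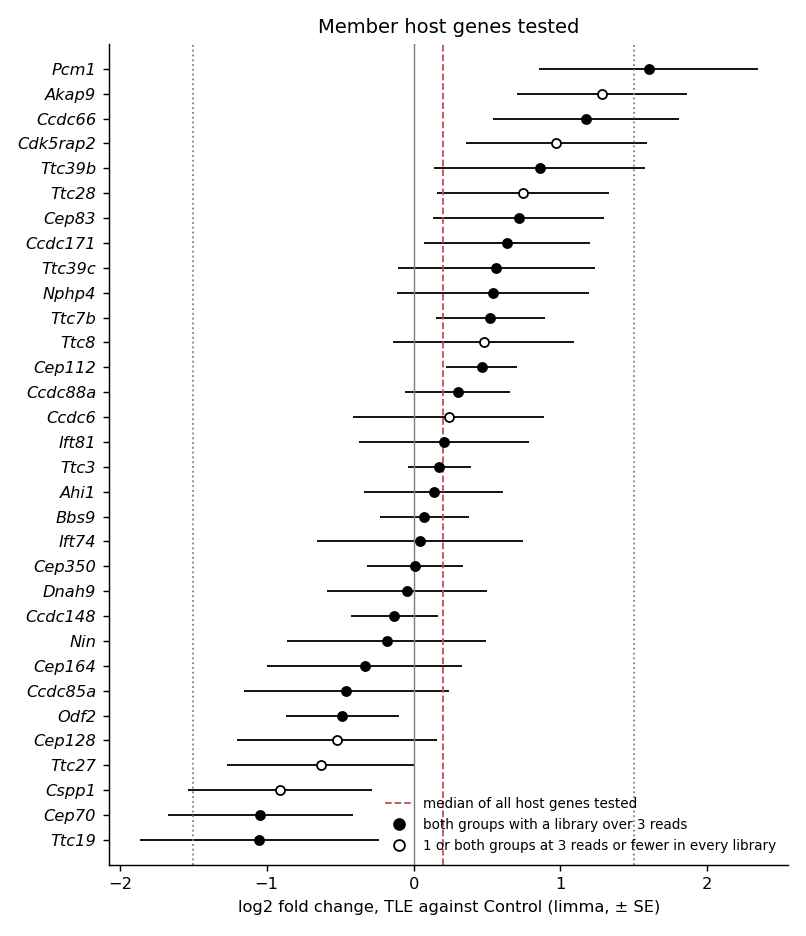
Log2 fold change of TLE against Control with its SE in limma (x axis) for the 32 member host genes tested (y axis); open points mark genes in which 1 or both groups had 3 junction reads or fewer in every library, the dashed line is the median of all host genes and dotted lines mark 1.5 in either direction. Pcm1 at 1.60 is the single point beyond a dotted line, and points scatter on both sides of the dashed line.

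Apart from Ttc19 and the genes above, the extreme log2 fold changes included those of Ttc39b and Ttc27, with 17 and 9 junction reads in all. Ttc39b, a tetratricopeptide protein of lipid metabolism, was listed at 0, 0 and 34.5 SRPBM in Control and 0, 43.8 and 69.2 SRPBM in TLE, with overlap and a log2 fold change of 0.86 ± 0.72 (SE). Ttc27 was listed at 25.6, 0 and 34.5 SRPBM in Control, whereas TLE 2 alone of the TLE libraries had a value (17.5 SRPBM). The median SE of a member's log2 fold change was 0.62.

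**Figure D5:**
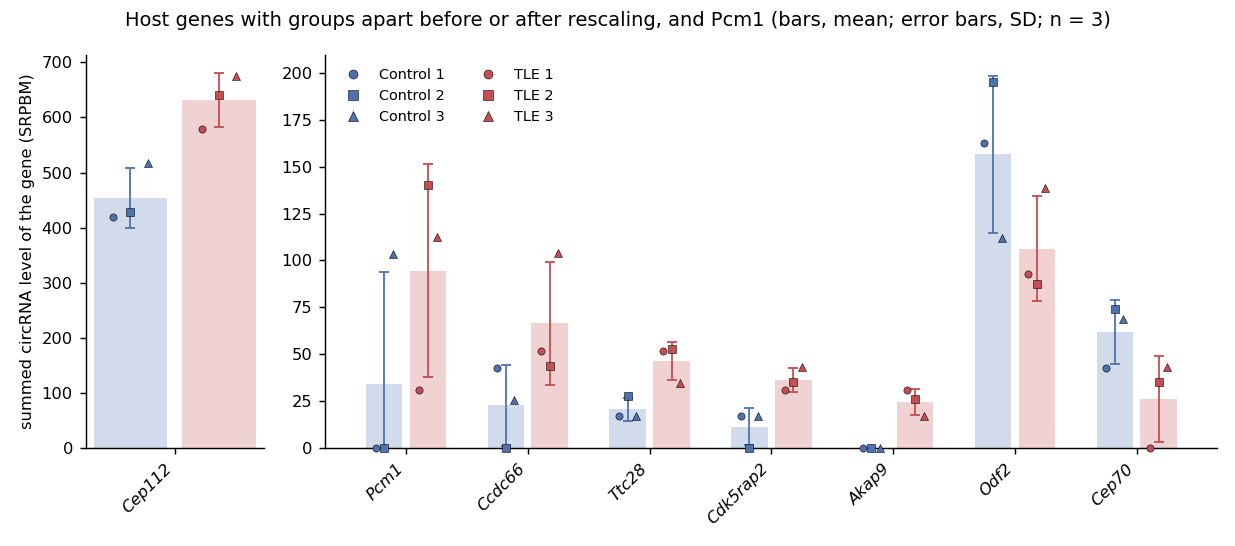
Summed circRNA level in SRPBM (y axis, linear, Cep112 on its own scale) of genes whose groups lie apart as deposited (Cep112, Ccdc66, Ttc28, Cdk5rap2, Akap9) or after rescaling (Cdk5rap2, Akap9, Odf2, Cep70), and of Pcm1; points are libraries, bars means and error bars SD (n = 3). Apart from Cep112 and Odf2, the highest point is that of Pcm1 in TLE 2, at 140.3 SRPBM.

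A list of 118 other centrosome and cilium genes, outside the naming rule, gave 117 circRNAs from 40 hosts, with 1068 junction reads. Of 25 tested, 1 was higher at the threshold, beside 1.53% of all host genes, and 1 was lower, beside 0.371%. The log2 fold change was above 0 in 14 (56%, beside 65.3%), and its median was 0.12, beside 0.20. Sufu, a negative regulator of hedgehog signalling, was listed at 0 in all 3 Control mice and reached 20.7, 70.1 and 60.6 SRPBM in TLE (unadjusted p = 0.00637 and adjusted p = 0.728 in limma). Sufu too passed the filter through TLE alone, which fixed its order of groups. Hook3, a dynein adaptor that binds satellites, had 17.1, 37.2 and 112 SRPBM in Control and 0, 0 and 17.3 SRPBM in TLE (adjusted p = 0.766 in limma). The highest, Dync2h1, the heavy chain of the retrograde IFT motor, ranged from 139 to 376 SRPBM in Control and from 173 to 309.9 SRPBM in TLE. None of the 25 had an adjusted p under 0.05 in limma, and 3 had an unadjusted p under 0.05, beside 6.17% of all host genes, the third being Rpgrip1l, a transition zone protein.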

How the data were processed

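CircRNAs of the cortex of 6 mice (3 Control and 3 TLE) were analysed, with the groups taken from the sample titles. Per the methods, the authors depleted ribosomal RNA, aligned reads with BWA-MEM, identified circRNAs with CIRI and deposited a normalized signal in SRPBM per circRNA and library. The submitters' processing notes name mm10 and DESeq2. The same table was deposited 6 times and read once. Here, a host gene's value was the sum of its circRNAs. Features above 0 in at least 3 libraries were tested over the whole table with limma 3.58.1 (R 4.3.3, trend, two-sided) on log2(SRPBM + 17.1), which understates changes at low levels, with Benjamini-Hochberg adjustment. The scripts were tested on simulated data. Depth was 32504 to 56516 junction reads, inferred from the steps of the values. Exons were those of GENCODE M21.

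Members and lists were chosen with earlier results of these data known. Named were the genes spelled out in the rule, the 12 with the highest mean, those past the threshold, the 5 highest and 5 lowest log2 fold changes, those without overlap between groups, and the 5 with the most circRNAs. The 8 circRNAs with the highest mean were also named, and other circRNAs were chosen after their values were seen. The sums after rescaling, shares within a gene and counts of values at 0 were added after the data were seen.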

Additional observations from a re-analysis of the deposited data

How the results depend on the processing

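Past the threshold as higher in TLE, 1 member host gene of 32 was counted, beside 33 of all 2157. The count was 2 with a pseudocount of 1 junction read (beside 60 of all genes) and with a log2 fold change of 1. It was 0 with rescaled libraries (beside 22) and with no trend in the variance (beside 30). Leaving out 1 library gave 0 to 2 higher, beside 35 to 59, and 0 to 1 lower, beside 5 to 22. The count of member circRNAs that were higher was 0 of 65, beside 54 of all 4271. It was 2 with a pseudocount of 1 junction read (beside 121 of all circRNAs), of 1 SRPBM (beside 88), or a log2 fold change of 1. With 1 library left out it was 0 to 2, beside 62 to 104. At a log2 fold change of 1 the 2 circRNAs were mmu_circ_0000590 and mmu_circ_0007509. Both passed the filter through TLE alone, which fixed their order of groups, so they are no evidence of a change. How many of all features pass at a log2 fold change of 1 was not counted, so the member counts at 1 cannot be read against a background. In limma an unadjusted p under 0.05 alone held for 2 of 32 member genes, beside 6.17% of all genes. For circRNAs it held for 2 of 65 members, beside 5.2% of all. With the replicate number as a block the counts were 1 higher and 0 lower for genes, beside 33 and 8 of all genes. For circRNAs they were 0, beside 54 and 13. Correlations of deviations were 0.0192, 0.0139 and 0.0103 between libraries of the same number, and -0.0242 to 0.00922 between different numbers. Values this small cannot tell whether the numbers pair the mice. Genes with groups apart (5 above and 0 below) were 2 and 2 after rescaling, and circRNAs (6 and 0) 3 and 2, an alternative chosen after seeing the data. Rescaling turned the sign for Ahi1 (-0.045), Ttc3 (-0.050), Bbs9 (-0.15), Cep350 (-0.20), Ift81 (-0.020), mmu_circ_0003477 (-0.032), mmu_circ_0003483 (-0.018), mmu_circ_0010366 (-0.14) and mmu_circ_0003486 (-0.17), as its construction implies for values near the shift. Leaving out 1 library turned others, with ranges for Ahi1 of -0.095 to 0.28, Nin -0.75 to 0.56, Bbs9 -0.19 to 0.45, Ttc19 and its circRNA mmu_circ_0000889 -1.87 to 0.58, Ccdc148 -0.27 to 0.13, Ccdc88a -0.0042 to 0.66, Cep350 -0.22 to 0.15, Ift81 -0.43 to 1.07, Dnah9 -0.66 to 0.31, mmu_circ_0003483 -0.18 to 0.47, mmu_circ_0010366 -0.11 to 0.35, mmu_circ_0003486 -0.41 to 0.37 and mmu_circ_0004891 -0.44 to 0.018. Without TLE 3 the lower gene was Ttc19, and without TLE 1 Ttc39b (1.55) was past the threshold beside Pcm1. Without Control 1, Ccdc66 (1.56) was past it in place of Pcm1 (1.13). Akap9 was the gene added with a pseudocount of 1 junction read, and also with a log2 fold change of 1. Akap9 passed the filter through TLE alone, which fixed its order of groups, so no fold is given and its addition is no evidence of a change. The cause was not tested. Planned edgeR and DESeq2 fits on recovered junction reads were not run. With 3 mice per group and most members at 10 reads or fewer, depth limits what can be told apart.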
